A study of Penaeus japonicus with 16 samples.

Results

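Peptidases that trim proteins from their ends, together with a few metal-dependent endopeptidases, were followed across 5 tissues of the kuruma shrimp (Penaeus japonicus). The probes were chosen by words in their descriptions: carboxypeptidase, aminopeptidase, dipeptidase, dipeptidyl, astacin, metallo-endopeptidase, neprilysin or angiotensin-converting, without the word inhibitor. The choice used no measured value, although it was made with earlier results of these data known. It gave 66 of the 13875 non-control probes of a custom oligonucleotide array, carrying 39 distinct descriptions. Hepatopancreas, gills, muscle and the lymphoid organ were each measured on 3 arrays and hemocytes on 4, and per the labels all shrimp were live, untreated and apparently healthy. Each array held Cy3-labelled RNA of 1 sample, and the 16 arrays lay on 2 slides of 8. Slide 1 held only 1 array each of hepatopancreas and gills, and slide 2 only 1 each of the lymphoid organ and muscle. The labels call the samples triplicates (4 for hemocytes) without saying whether different animals were used; p-values therefore measure the spread between these samples, which may be technical. The number of arrays limits the precision of each value.

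Carboxypeptidases remove amino acids from the carboxyl end of a protein and aminopeptidases from the amino end, and most of both kinds hold a zinc ion in the active site. In crustaceans the hepatopancreas is the main digestive gland, and it secretes trypsins and carboxypeptidases into the gut and absorbs the products. Membrane-bound peptidases such as neprilysin, angiotensin-converting enzyme and aminopeptidase N cut small peptides outside the cell, hormones included, whereas dipeptidases and methionine aminopeptidases work mostly inside it. The words also brought in enzymes that use an active-site serine and no metal, namely the serine carboxypeptidases, the relatives of dipeptidyl peptidases 4 and 9 and alpha-aspartyl dipeptidase. The 66 probes were sorted by description into 11 families, of which the largest were 14 carboxypeptidases outside the glutamate, serine and carboxypeptidase d groups (called other carboxypeptidases below), 11 membrane and related aminopeptidases (the M1 family), 10 other aminopeptidases and 10 glutamate carboxypeptidases. Of these probes 11 shared an assembly locus with another and so may report the same gene; 9 further probes carried a locus number given to 87117 transcripts, which does not tell genes apart.

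Signals are given below as levels on a log2 scale relative to the 75th percentile of the same array, so that 0 is that percentile and a difference of 1 is 2-fold. Levels of different probes cannot be set against each other, because probes differ in how well they bind. The share of probes detected ran from 40.99% (muscle 3) to 82.26% (lymphoid organ 1), and the 75th percentile of signal from 31.26 (hemocytes 1) to 299.7 units (hemocytes 3). Summed signals of marker lists separated 3 of the tissues from the others. That of 47 hepatopancreas markers was 20739 to 107664 times the percentile in hepatopancreas, against 56.92 to 372.6 in the other tissues. For 28 muscle markers it was 43451 to 78983 in muscle, against 151.6 to 887 elsewhere. For 33 hemocyte markers it was 3093 to 5917 in hemocytes, against 31.05 to 787.6 elsewhere. Single markers did not all follow the sums. By the calls defined below, 20 of the 33 hemocyte markers were higher in hemocytes and 7 lower (18.8% and 27.1% of all tested probes). In hepatopancreas 41 of 46 tested markers were higher and 2 lower (20.5% and 23.4%). In muscle 17 of 23 were higher and 2 lower (20.4% and 18.4%). The 12 gill markers summed to 70.62 to 153.9 in gills, against 79.4 to 99.06 in hemocytes and less in the other tissues. Their sum did not separate gills from hemocytes. Of the 9 tested gill markers 5 were higher in gills and 1 lower (9.15% and 8.16% of all tested probes). In hemocytes 1 of the 9 was higher and 6 lower (18.8% and 27.1%). No marker was defined for the lymphoid organ.

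Of the 66 probes, 55 were detected in at least 1 tissue on all of its usable arrays and were tested, in a fit over all 10317 probes that met this rule (74.4% of the array). Each tissue was set against the mean of the other 4, and a probe was called higher or lower at a Benjamini-Hochberg adjusted p below 0.05 in limma and at least a 2-fold difference. The stricter term enriched means that the tissue exceeded every one of the other 4 by 4-fold or more, each with adjusted p below 0.05. Where a spot on the dimmer side was not detected, the fold is a lower bound, obtained by raising each such spot to the lowest detected signal of its array, and is written "at least"; the log2 differences and p-values are as fitted, without that step. In whole tissues, fewer cells of a type and less RNA per cell cannot be told apart.

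More of these enzymes were called higher in hepatopancreas than in any other of the 5 tissues. Of the 55 tested probes 26 were higher there than the mean of the others (47.3%, against 20.5% of all tested probes), and 19 were enriched there (34.5%, against 6.97%). In all, 25 of the 55 had their highest mean in hepatopancreas (45.5%, against 24.5% of all tested probes), 12 in gills (21.8%, against 12.3%), 7 in muscle (12.7%, against 28.1%), 6 in hemocytes (10.9%, against 26.6%) and 5 in the lymphoid organ (9.09%, against 8.54%). The median difference of the 55 probes in hepatopancreas was 0.97, against -0.34 for all tested probes. Counting every tissue, 23 probes were enriched in 1 of them (41.8%, against 19.6%). Of the 19 in hepatopancreas, which carried 14 descriptions, 18 were still at least 4-fold above the closest tissue with undetected spots raised. Counts within a slide are not given, because each slide held only 1 array of some tissues, hepatopancreas included on slide 1. No count over all tested probes was set beside the 18.

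**Figure D1:**
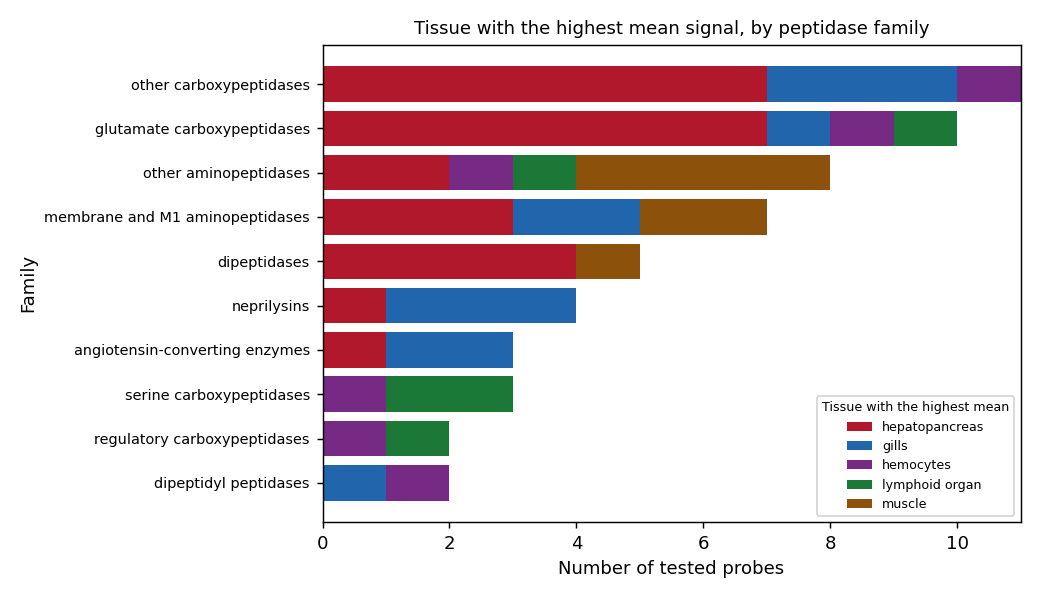
Number of tested peptidase probes (horizontal axis) in each family, coloured by the tissue in which the probe's mean level was highest. Hepatopancreas held the highest mean of 7 of 11 other carboxypeptidases, 7 of 10 glutamate carboxypeptidases and 4 of 5 dipeptidases, and of 0 of 3 serine carboxypeptidases.

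**Figure D2:**
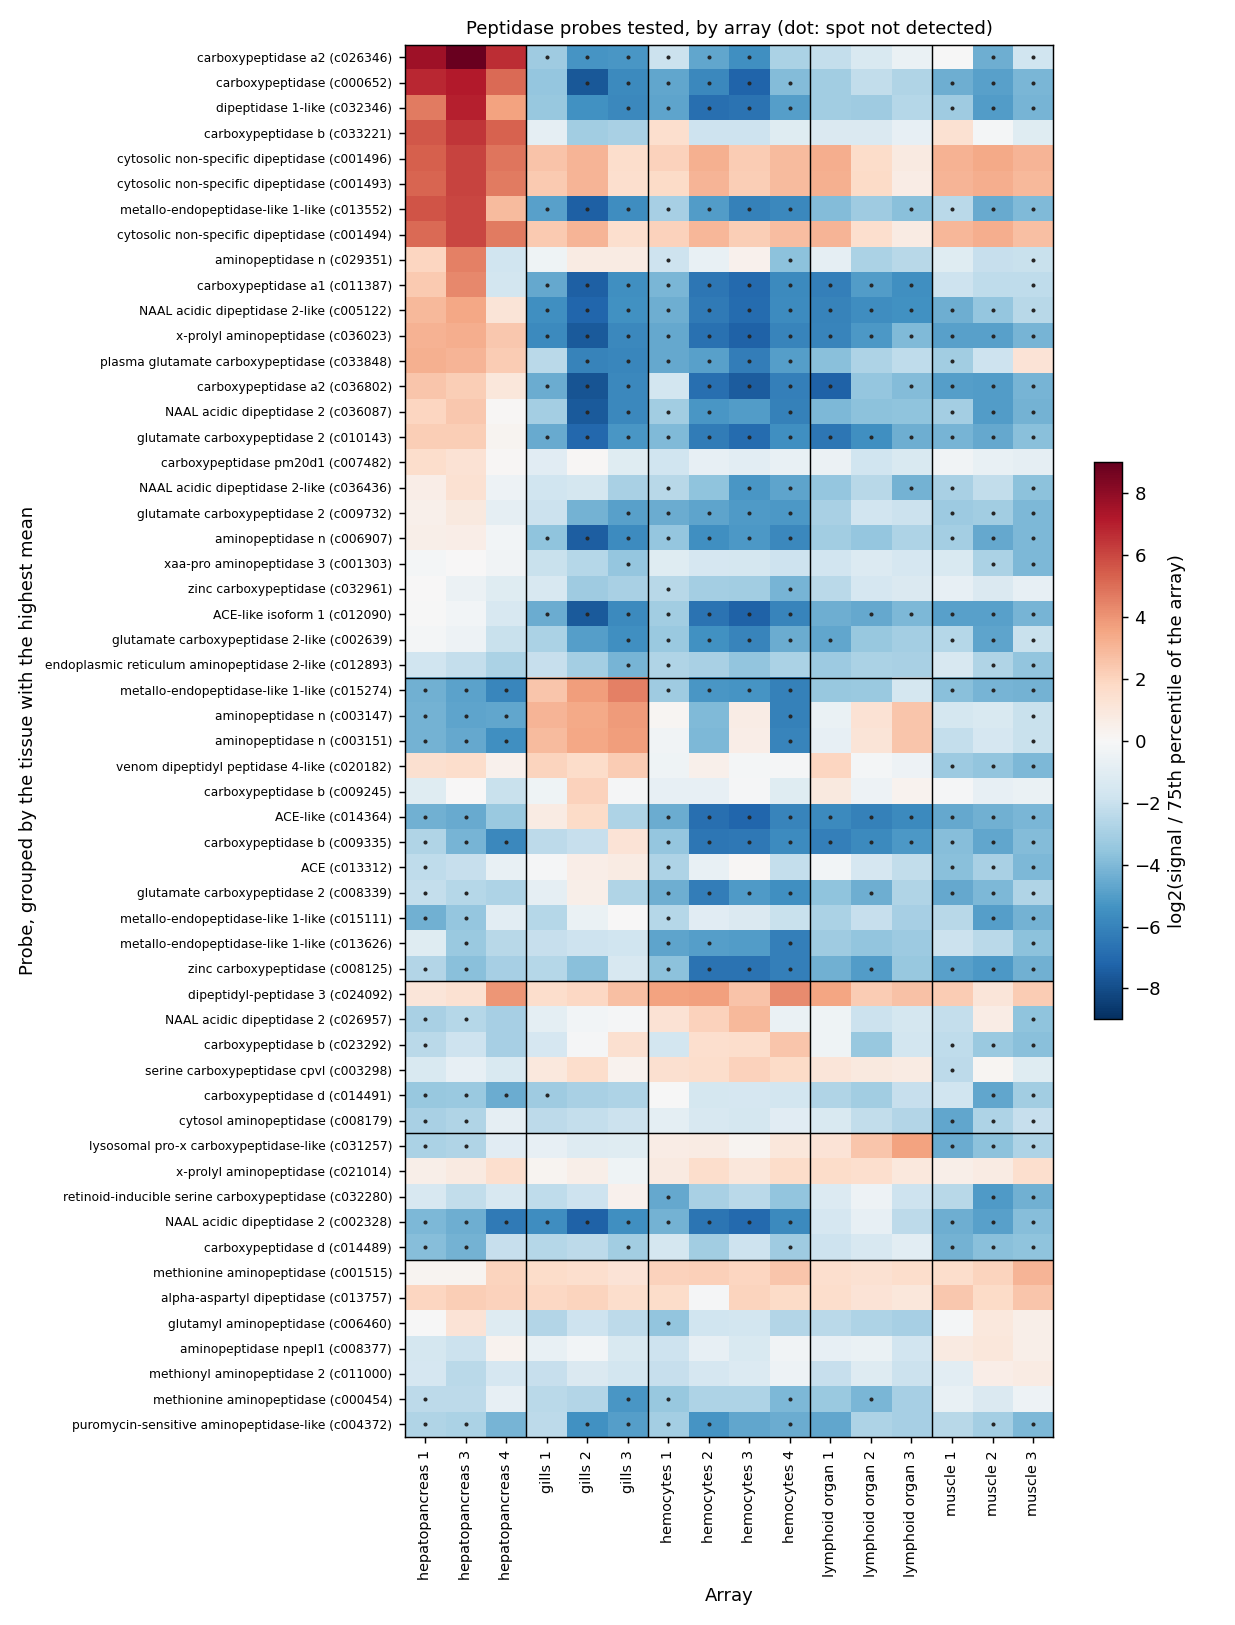
Level of the 55 tested probes (rows, grouped by the tissue with the highest mean) on the 16 arrays (columns), as log2 of signal over the array's 75th percentile, with a dot for a spot that was not detected. NAAL stands for n-acetylated alpha-linked, ACE for angiotensin-converting enzyme, and c before a number for cluster. The hepatopancreas block of 25 probes is the largest, and many of its spots in the other tissues were not detected.

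Among the 11 tested probes of the other carboxypeptidases, 7 were higher in hepatopancreas (20.5% of all tested probes were) and 5 were enriched there (6.97% of all). Of the 4 carboxypeptidase b probes among them 1 was higher in hepatopancreas (20.5% of all), while cluster009245 and cluster009335 had their highest mean in gills and cluster023292 in hemocytes. Carboxypeptidase A enzymes remove bulky and aliphatic residues and carboxypeptidase B enzymes remove lysine and arginine, the residues that trypsin leaves at the end of its products. Carboxypeptidase a2 (cluster026346) stood at 7.65, 8.87 and 6.63 on hepatopancreas arrays 1, 3 and 4, against -5.29 to -3.21 in gills, -5.52 to -1.92 in hemocytes, -2.15 to -0.59 in the lymphoid organ and -4.41 to -0.000419 in muscle. Every hepatopancreas array lay above every array of another tissue. Against the mean of the others the probe was at least 1324-fold higher (difference 10.66, SE 0.83, adjusted p = 5.36e-08) and 543.5-fold above the lymphoid organ, its closest tissue. A probe described only as carboxypeptidase (cluster000652) had levels of 6.76, 7.14 and 5.11 in hepatopancreas. On the other 13 arrays it ran between -7.6 and -2.18, and it was detected on all 3 lymphoid organ arrays and 1 gill array only. Its difference was 10.87 (SE 0.74, adjusted p = 2.1e-08), at least 830.5-fold.

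Carboxypeptidase b (cluster033221) was detected on all 16 arrays, so its folds were measured on both sides. Its levels were 5.58, 6.43 and 5.3 in hepatopancreas, against -3.12 to 1.48 on the other arrays, the highest of these being hemocytes 1. The difference was 113-fold (log2 6.82, SE 0.66, adjusted p = 4.92e-07), and muscle was the closest tissue at 53.55-fold. A further carboxypeptidase a2 (cluster036802) reached 2.49, 2.23 and 1.04 in hepatopancreas and was not detected in gills or muscle (at least 47.69-fold, adjusted p = 2.93e-05). Carboxypeptidase a1 precursor (cluster011387) was the least even of the group, with 2.35, 4.34 and -1.64 on hepatopancreas arrays 1, 3 and 4. Muscle lay at -2.31 to -1.83 for this probe, just under hepatopancreas 4, and the fold against all other tissues was at least 39.64 (log2 6.53, SE 0.90, adjusted p = 2.42e-05). Smaller differences were found for the probable carboxypeptidase pm20d1 precursor (cluster007482), whose mammalian counterpart is secreted and joins or splits fatty acids and amino acids (3.685-fold, adjusted p = 0.00156), and for zinc carboxypeptidase (cluster032961, at least 2.95-fold, adjusted p = 0.0102, lost without hepatopancreas 1 at adjusted p = 0.074).

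**Figure D3:**
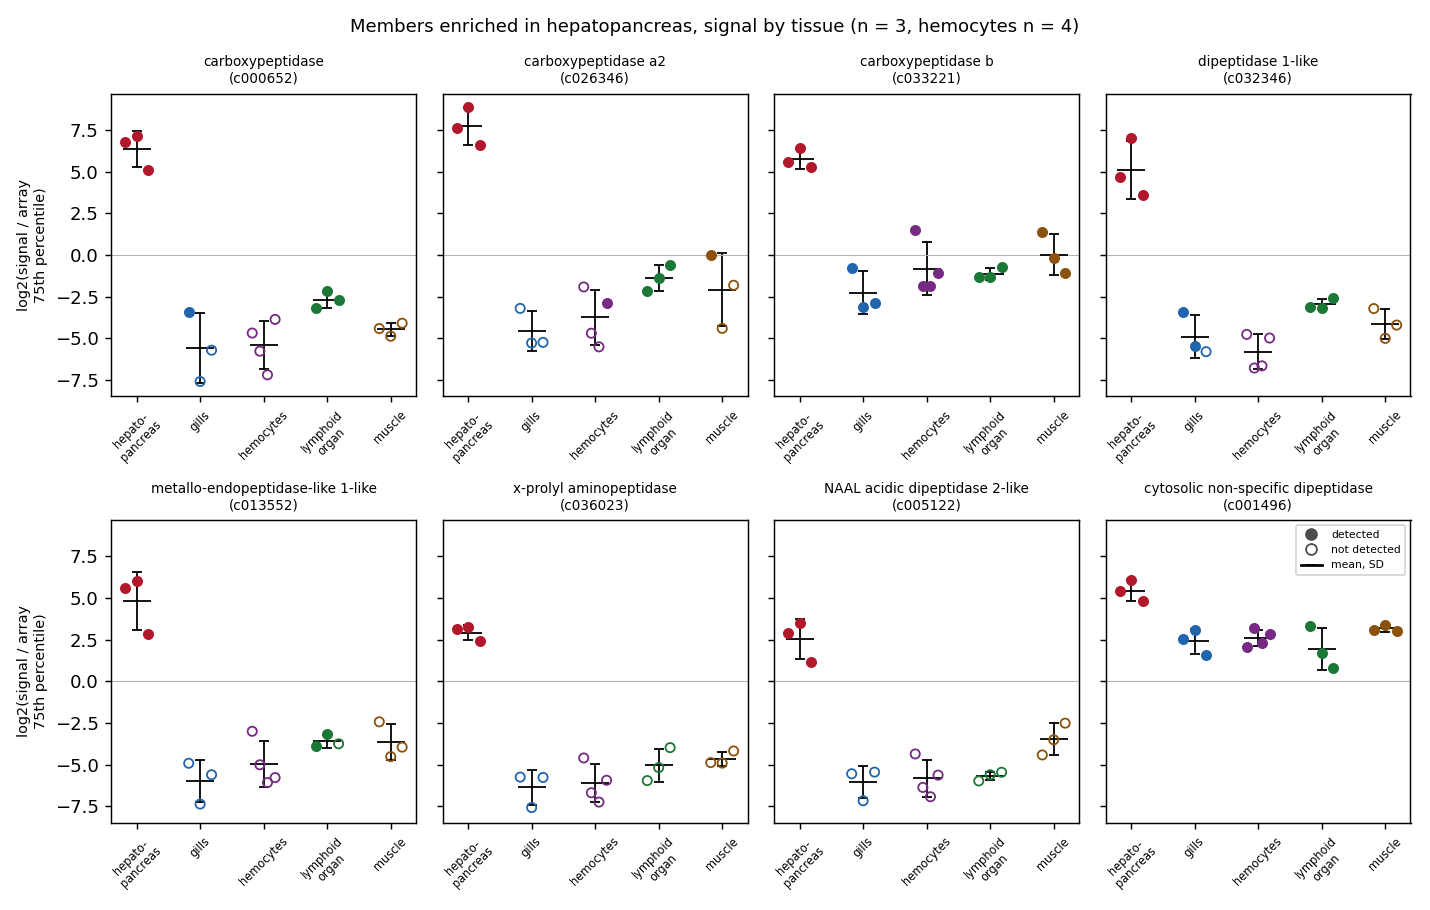
Level of 8 probes enriched in hepatopancreas, on each array (points, open where not detected) with the mean and SD of each tissue, as log2 of signal over the array's 75th percentile. Hepatopancreas arrays lie above all others for each of the 8 probes, and cytosolic non-specific dipeptidase alone had a mean above 0 in each of the other tissues. NAAL stands for n-acetylated alpha-linked.

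Glutamate carboxypeptidases formed the family with the most enriched probes. In mammals glutamate carboxypeptidase 2 is a membrane enzyme that splits terminal glutamate from a neuropeptide in the brain and from dietary folate in the gut, whereas plasma glutamate carboxypeptidase, grouped here by its description, is a soluble dipeptidase. All 10 probes were tested. Of these 7 were higher in hepatopancreas (20.5% of all tested probes were) and 6 were enriched there (6.97% of all), and 9 were lower in hemocytes (27.1% of all). With the hepatopancreas left out of the comparison, cluster033848, cluster002328, cluster008339 and cluster009732 were still lower in hemocytes. The hemocyte calls of cluster005122, cluster010143, cluster036087, cluster002639 and cluster036436 were then lost. N-acetylated alpha-linked acidic dipeptidase 2-like (cluster005122) had levels of 2.91, 3.48 and 1.18 in hepatopancreas and was detected on no other array, at least 77.14-fold above the other tissues (log2 7.79, SE 0.62, adjusted p = 5.93e-08). The same pattern of detection was seen for glutamate carboxypeptidase 2 (cluster010143), at 2.18, 2.23 and 0.23 in hepatopancreas (at least 39.19-fold, adjusted p = 6.48e-07). Plasma glutamate carboxypeptidase (cluster033848) stood at 3.18, 3.08 and 2.27 in hepatopancreas and at least 56.84-fold above the rest (adjusted p = 8.09e-06). Muscle was uneven for this probe, with -3.12 and -1.87 on muscle 1 and 2 and 1.21 on muscle 3. Differences of 6.06 for n-acetylated alpha-linked acidic dipeptidase 2 (cluster036087), 3.73 for another glutamate carboxypeptidase 2 (cluster009732) and 3.61 for another 2-like probe (cluster036436) completed the enriched probes, with adjusted p of 1.3e-05, 4.5e-05 and 0.000105. Glutamate carboxypeptidase 2-like (cluster002639) was higher in hepatopancreas without being enriched (3.12, adjusted p = 0.0019).

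Dipeptidases carry out the final step of peptide breakdown, the splitting of pairs of amino acids. Dipeptidase 1-like (cluster032346), whose mammalian counterpart sits on the brush border of kidney and gut, reached 4.67, 7.03 and 3.63 in hepatopancreas. Its levels elsewhere ran from -6.79 to -2.58, with the lymphoid organ above the rest of them, and it was not detected in hemocytes or muscle. The difference was at least 370.1-fold (log2 9.56, SE 0.68, adjusted p = 2.53e-08). Cytosolic non-specific dipeptidase, a broad enzyme of the cell interior, was measured by 3 probes of 1 locus that moved together (Pearson's r of 0.996 to 0.998 over the 16 arrays, a description of repeated measurement). Its probe cluster001496 had levels of 5.41, 6.11 and 4.85 in hepatopancreas, 3.11, 3.39 and 3.04 in muscle, 1.6 to 3.08 in gills, 2.09 to 3.19 in hemocytes and 0.8 to 3.3 in the lymphoid organ. The 3 probes were detected on all 16 arrays, and were 7.275- to 7.597-fold above the other tissues, and 4.772- to 4.846-fold above muscle.

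Among aminopeptidases, x-prolyl aminopeptidase (cluster036023), which removes an amino acid standing before proline, was detected on the 3 hepatopancreas arrays and on no other. Its levels there were 3.12, 3.24 and 2.41, at least 101.4-fold above the other tissues (log2 8.47, SE 0.59, adjusted p = 2.35e-08). Aminopeptidase n (cluster006907), of a membrane family that trims peptides at gut brush borders, stood at 0.51, 0.58 and -0.24 in hepatopancreas, against -7.43 to -2.81 on all other arrays (at least 13.55-fold, adjusted p = 2.4e-05). Another aminopeptidase n (cluster029351) averaged 1.56 ± 3.2 in hepatopancreas (SD, n = 3), with 1.94 and 4.55 on arrays 1 and 3 and -1.8 on array 4. It was called higher (at least 6.888-fold, adjusted p = 0.0259), but the difference was 1.29 without hepatopancreas 3 (adjusted p = 0.297) and 2.6 without hepatopancreas 1 (adjusted p = 0.0977). Probable xaa-pro aminopeptidase 3 (cluster001303) was higher by 1.96 (adjusted p = 0.00265) and glutamyl aminopeptidase (cluster006460) by 1.75 (adjusted p = 0.00882), the second no longer without hepatopancreas 3 (1.12, adjusted p = 0.106).

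Hepatopancreas 4 gave the lowest of the 3 hepatopancreas levels for all 19 enriched probes. It lay below the mean of hepatopancreas 1 and 3 by 0.71 (carboxypeptidase b, cluster033221) to 4.98 (carboxypeptidase a1 precursor), with a median of 1.4. The same array was the lowest for 83.9% of the 719 probes enriched in hepatopancreas over the whole array, and the summed signal of 23 trypsin and chymotrypsin probes was 11361 there, against 26100 and 46768 on hepatopancreas 1 and 3. Its share of detected probes was 75.5%, against 48.95% and 51.53%. The part of these differences in the levels of the peptidases was not tested. Without hepatopancreas 4, 22 probes were enriched, and without hepatopancreas 3 the count was 13.

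The neighbouring steps of digestion were described from lists of description words. Of 23 trypsin and chymotrypsin probes, all tested, 21 were higher in hepatopancreas and 1 was lower, with a median difference of 10.79. Over all tested probes 20.5% were higher and 23.4% lower there, with a median of -0.34. Trypsin and chymotrypsin were also words of the hepatopancreas marker list above, so the 2 lists are not separate observations. The lower probe was trypsin domain containing 1 (cluster033951, log2 -1.35, adjusted p = 0.0156), and chymotrypsin-like protein (cluster013366) was not called (log2 -0.41, adjusted p = 0.644). Of 23 transporter probes for peptides and amino acids, 13 were tested. Of these 7 were higher and 2 lower in hepatopancreas (20.5% and 23.4% of all), with a median of 1.92. Of 32 probes for other metallopeptidases 23 were tested. Of these 3 were higher in hepatopancreas and 9 lower (20.5% and 23.4% of all), with a median of -0.82. Among them endothelin-converting enzyme 1-like (cluster003803), of the neprilysin family, was at least 154.6-fold higher in hepatopancreas (adjusted p = 6.46e-07) and zinc metalloproteinase nas-4 (cluster035249), an astacin relative named after the nematode enzyme, at least 183.3-fold (adjusted p = 2.53e-08). In hemocytes another endothelin-converting enzyme 1-like (cluster022523) was at least 32.27-fold higher (adjusted p = 6.78e-07), and matrix metalloproteinase (cluster006714), which cuts extracellular matrix, at least 27.65-fold (adjusted p = 1.22e-06).

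In gills, 10 of the 55 probes were higher than the mean of the others (9.15% of all tested probes were) and 13 lower (8.16% of all), and 3 were enriched (2.64% of all). Of the 10, 8 remained at least 2-fold higher with undetected spots raised, against 900 of the 944 called higher over all tested probes. The leading probe was membrane metallo-endopeptidase-like 1-like (cluster015274), a relative of neprilysin, the membrane enzyme that inactivates peptide hormones. Its levels were 2.52, 3.79 and 4.51 in gills, against -3.4 to -1.57 in the lymphoid organ and -6.06 to -3.19 in hepatopancreas, hemocytes and muscle, where no spot was detected. The difference was 7.81 (SE 0.60, adjusted p = 1.25e-07), at least 104.6-fold. It was 6.5 within slide 1, which held only 1 gill array, and 8.36 within slide 2.

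The 4 probes with that description had different patterns. Cluster013552 was highest in hepatopancreas, at 5.63, 6.02 and 2.84 in hepatopancreas, and was detected elsewhere on 2 lymphoid organ arrays only (at least 339.1-fold, log2 9.37, SE 0.74, adjusted p = 5.67e-08). Cluster013626 stood at -2.04, -1.86 and -1.81 in gills, where its higher call (log2 1.48, adjusted p = 0.0494) was lost under 21 of 29 alternatives. It was lower in hemocytes, at -6.13 to -4.76, than on any other array (log2 -2.65, at least 2.671-fold, adjusted p = 0.000158). Cluster015111 ran from -4.93 to 0.0383, and its groups overlapped, muscle included (-2.49, -4.93 and -4.24). Its lower call in muscle (-1.80, adjusted p = 0.0483) was 1.312-fold at its bound and was lost under 18 of 29 alternatives.

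**Figure D4:**
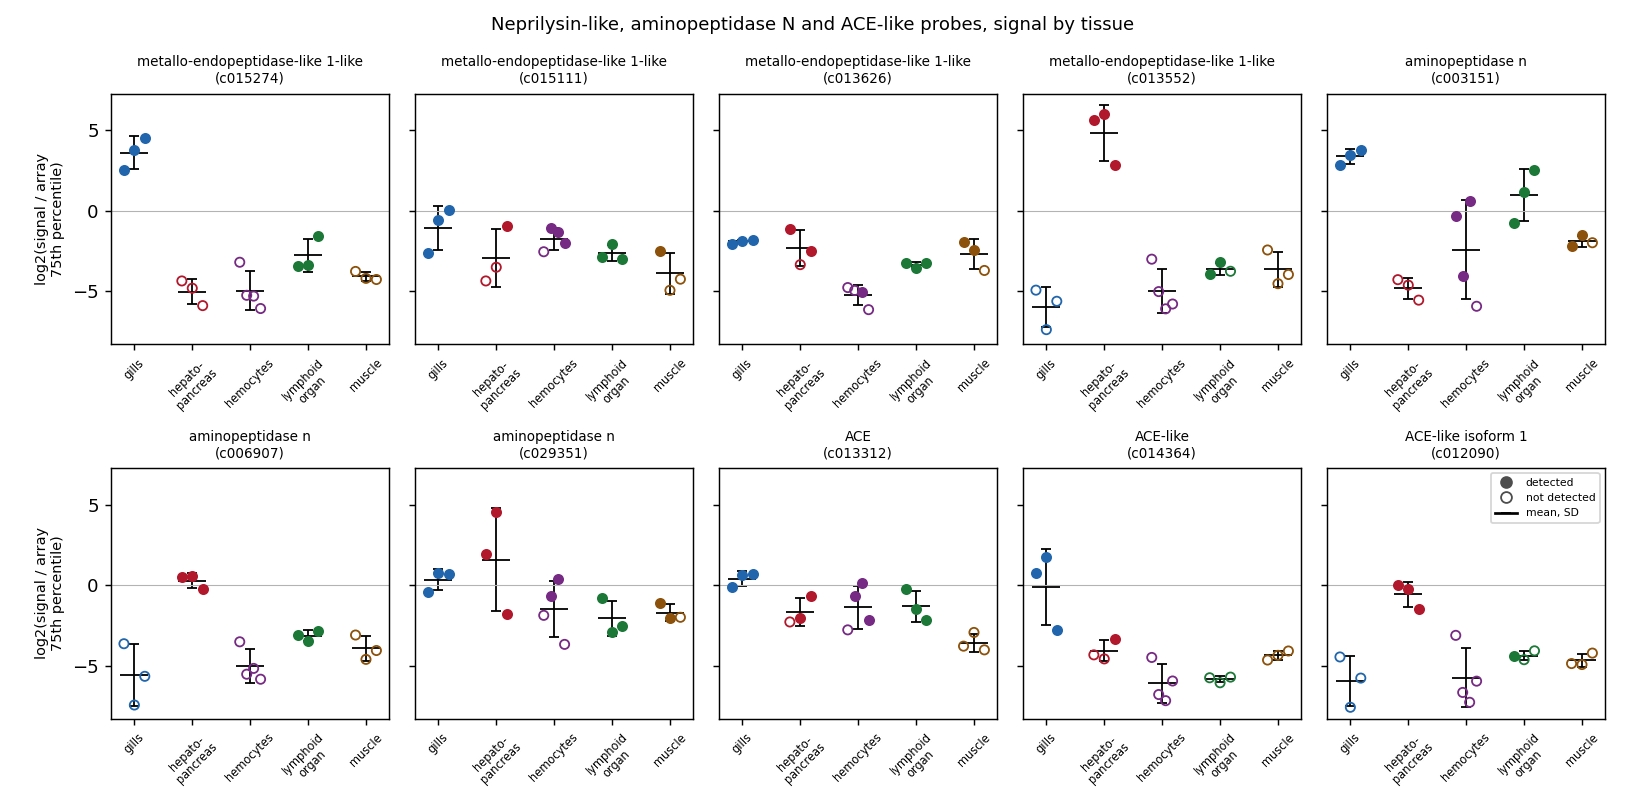
Level of 4 neprilysin-like, 3 aminopeptidase n and 3 angiotensin-converting enzyme (ACE) probes on each array (points, open where not detected) with the mean and SD of each tissue, as log2 of signal over the array's 75th percentile. Probes with the same or a similar description peaked in different tissues, such as cluster015274 in gills (2.52 to 4.51) and cluster013552 in hepatopancreas (2.84 to 6.02).

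Of 4 tested aminopeptidase n probes 2 were called higher in gills, cluster003151 and cluster003147 of 1 locus (Pearson's r of 0.996 over the 16 arrays). The first had levels of 2.86, 3.47 and 3.78 in gills, -0.75, 1.18 and 2.51 in the lymphoid organ, -2.16, -1.53 and -1.98 in muscle and -5.54 to -4.27 in hepatopancreas, where it was not detected. Hemocytes were split, with -0.33 and 0.58 on arrays 1 and 3 and -4.05 and -5.92 on arrays 2 and 4, and the second probe showed the same split (0.18, 0.64, -3.98 and -6.06). Against the mean of the other tissues cluster003151 was at least 28.61-fold higher in gills (log2 5.41, SE 0.98, adjusted p = 0.000974), and at least 8.422-fold lower in hepatopancreas (log2 -4.82, adjusted p = 0.000817). The gill difference was 4.88 within slide 1, which held only 1 gill array, and 5.43 within slide 2.

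Angiotensin-converting enzyme, a dipeptidyl carboxypeptidase that in insects and mammals processes peptide hormones, was covered by 3 probes. Angiotensin-converting enzyme-like (cluster014364) had levels of 0.74, 1.72 and -2.77 in gills and was detected elsewhere only on hepatopancreas 4, at -3.32. It was enriched in gills (at least 9.638-fold above the other tissues, adjusted p = 0.000157). Angiotensin-converting enzyme (cluster013312) was higher in gills (-0.1, 0.61 and 0.72, at least 4.309-fold, adjusted p = 0.00812) and lower in muscle (-4.01 to -2.93, at least 2.943-fold, adjusted p = 0.00197); the gill call was lost without gills 2 or gills 3 (adjusted p = 0.0511 and 0.0534). Angiotensin-converting enzyme-like isoform 1 (cluster012090) was enriched in hepatopancreas (-0.0182, -0.22 and -1.46, at least 8.793-fold, adjusted p = 0.000101), although its bound over muscle, the closest tissue, was 3.919-fold.

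Of the other probes higher in gills, carboxypeptidase b (cluster009335) was detected on gill arrays only, at -2.37, -2.08 and 1.23 (at least 5.211-fold, adjusted p = 0.00269), but its bound over muscle was 2.762-fold. Venom dipeptidyl peptidase 4-like (cluster020182), of a family that removes pairs of amino acids ending in proline, was at 1.98, 1.66 and 2.29 in gills, 1.43, 1.55 and 0.42 in hepatopancreas and -0.45 to 1.96 in hemocytes and the lymphoid organ. Its largest difference was in muscle, where levels of -3.28, -3.54 and -4.03 were all not detected. It was the 1 probe at least 4-fold below each other tissue in muscle (1.84% of all tested probes were), by at least 10.65-fold against their mean (log2 -4.49, SE 0.45, adjusted p = 1.26e-06). The gill call (2.5, adjusted p = 0.000861) was kept without any single array, whereas the hepatopancreas call (1.45, adjusted p = 0.0149) was lost without hepatopancreas 1 or 3 (adjusted p = 0.0735 and 0.082). Glutamate carboxypeptidase 2 (cluster008339) was higher by 2.79 in gills (adjusted p = 0.00445, and 0.0676 without gills 2). Zinc carboxypeptidase (cluster008125) was called by 1.90 (adjusted p = 0.047), a call lost under 20 of 29 alternatives.

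In hemocytes, 6 of the 55 probes were higher than the mean of the others (18.8% of all tested probes were), 0 were enriched in limma (4.07% of all; 0 also at an unadjusted p under 0.05), and 23 were lower (27.1% of all). N-acetylated-alpha-linked acidic dipeptidase 2 (cluster026957) was the exception among its family, with 1.29, 2.05, 2.9 and -0.58 in hemocytes. Levels were -0.87 to -0.1 in gills, -1.9 to -0.42 in the lymphoid organ, -3.02 to -2.56 in hepatopancreas and -3.6 to 0.64 in muscle, so that hemocytes 4 lay inside the range of the other tissues. Hemocytes exceeded the mean of the others by 2.97 (SE 0.65, at least 6.931-fold, adjusted p = 0.00137). Carboxypeptidase b (cluster023292) had levels of -1.67, 1.51, 1.55 and 2.52 in hemocytes and at most 1.46 elsewhere (at least 6.275-fold, adjusted p = 0.00324).

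Serine carboxypeptidases, enzymes of lysosomes and secretory granules that use no metal, had 3 tested probes. In hepatopancreas 0 of them were higher and 2 lower (20.5% and 23.4% of all tested probes). In muscle 0 were higher and all 3 lower (20.4% and 18.4% of all). Lysosomal pro-x carboxypeptidase-like (cluster031257), which removes a residue after proline, had levels of 1.22, 2.5 and 3.63 in the lymphoid organ and 0.26 to 1.01 in hemocytes, against -1.13 to -0.73 in gills, -2.87 to -1.01 in hepatopancreas and -4.45 to -2.8 in muscle, where it was not detected. Every lymphoid organ array lay above every other array. The lymphoid organ exceeded the mean of the others at least 12.57-fold (log2 3.99, SE 0.50, adjusted p = 0.000127) and 3.414-fold above hemocytes, its closest tissue (adjusted p = 0.0411), and hemocytes exceeded the mean of all 4 other tissues, the lymphoid organ included, at least 2.709-fold (adjusted p = 0.00385). Probable serine carboxypeptidase cpvl precursor (cluster003298), a relative found in mammalian macrophages, was higher in hemocytes (1.42 to 2.04, at least 3.486-fold, adjusted p = 0.00118) and lower in hepatopancreas (-1.4, -0.75 and -1.36, 3.434-fold, adjusted p = 0.00298) and muscle (at least 3.241-fold, adjusted p = 0.00501). Retinoid-inducible serine carboxypeptidase (cluster032280) was lower in muscle (log2 -2.10, adjusted p = 0.0141), but at its bound by 1.532-fold, and not without muscle 2 or 3 (adjusted p = 0.122 and 0.064).

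Carboxypeptidase d, an enzyme of the secretory pathway that trims the ends left by prohormone cleavage, had 2 probes of 1 locus that differed from each other. Cluster014491 was higher in hemocytes (-0.00437, -1.57, -1.49 and -1.66, at least 2.925-fold, adjusted p = 0.00325), above every array of another tissue. Cluster014489 was highest in the lymphoid organ (-1.86, -1.42 and -0.93, log2 1.69, adjusted p = 0.0429), a call lost under 19 of 30 alternatives. In the lymphoid organ 3 probes in all were higher (6.42% of all tested probes were), 4 were lower (2.82% of all) and 1 was enriched (0.727% of all). There were 0 lower calls without lymphoid organ 2 or 3 and 6 without hepatopancreas 4. Of the 4 lower probes, cytosolic non-specific dipeptidase lost its call under 18 (cluster001494) and 21 (cluster001496) of 30 alternatives, glutamyl aminopeptidase (cluster006460) under 19 and cluster005122 under 6. The enriched probe, n-acetylated alpha-linked acidic dipeptidase 2 (cluster002328), was detected on the 3 lymphoid organ arrays only, at -1.5, -0.75 and -2.39 (log2 3.80, SE 0.65, adjusted p = 0.00139), and its bound over muscle was 1.988-fold.

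Muscle had 4 higher probes (20.4% of all tested probes were) and 12 lower ones (18.4% of all), and 0 were enriched in limma (5.16% of all; 0 also at an unadjusted p under 0.05). All 4 were aminopeptidases. Glutamyl aminopeptidase (cluster006460), a membrane enzyme that in mammals cuts angiotensin, had levels of -0.19, 0.98 and 0.55 in muscle, -0.0591, 1.24 and -1.19 in hepatopancreas and -3.53 to -1.65 elsewhere. Muscle exceeded the mean of the others by 2.31 (SE 0.49, at least 4.72-fold, adjusted p = 0.0015), and muscle and hepatopancreas overlapped. Methionine aminopeptidases take the starting methionine off new proteins: the probe cluster000454 reached -0.66, -1.29 and -0.49 in muscle (at least 3.872-fold, adjusted p = 0.00613) and methionyl aminopeptidase 2 (cluster011000) -0.95, 0.57 and 0.75 (3.368-fold, adjusted p = 0.00476). Probable aminopeptidase npepl1 (cluster008377), of the leucine aminopeptidase family, was at 0.8, 1 and 0.5 in muscle, above every other array (3.334-fold, adjusted p = 0.00797).

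**Figure D5:**
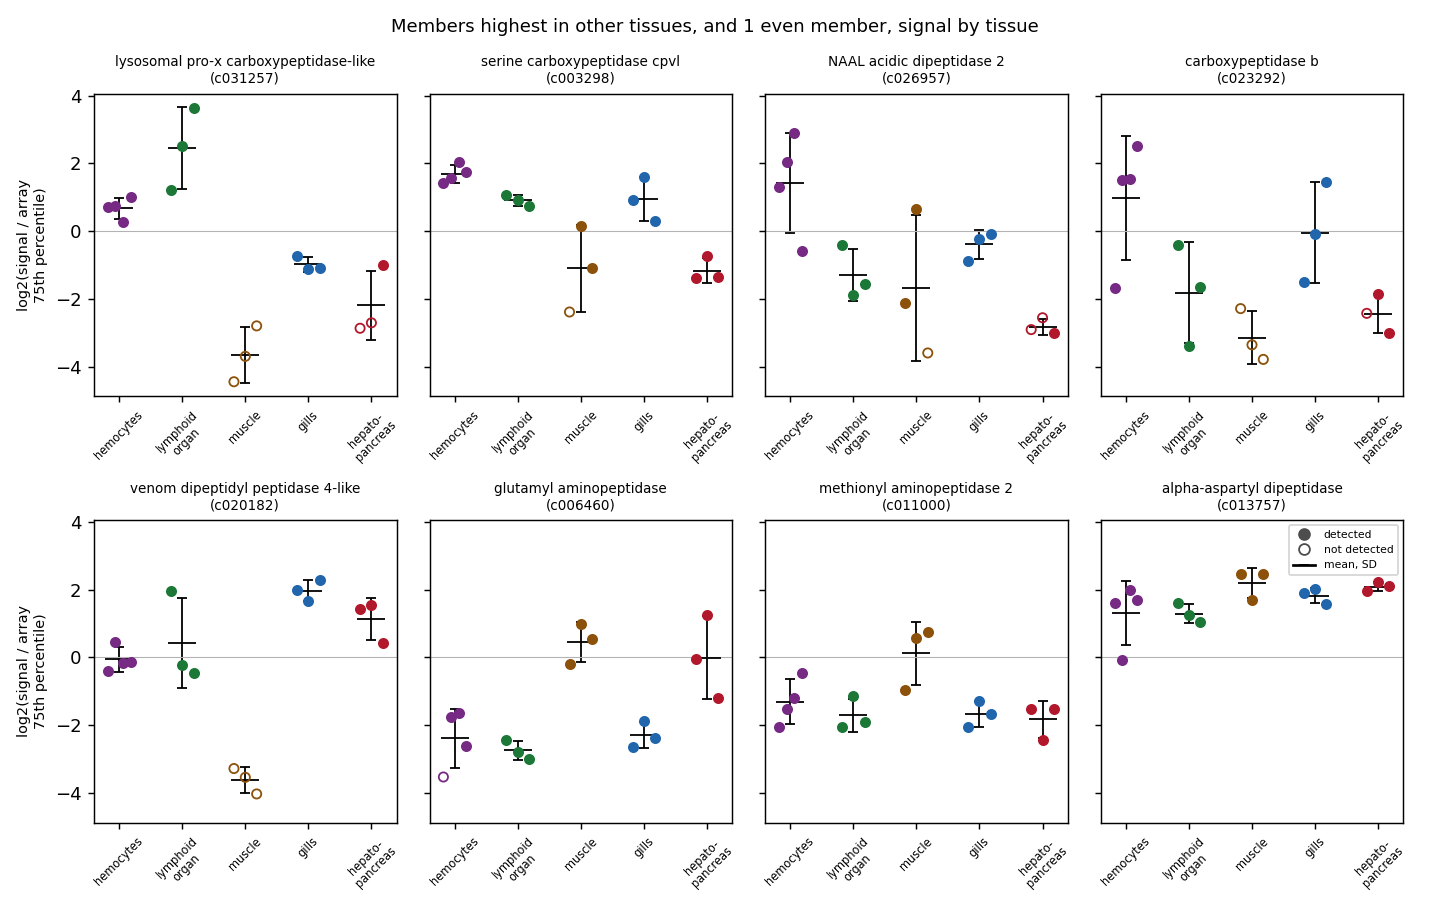
Level of 7 probes highest outside the hepatopancreas and of alpha-aspartyl dipeptidase, an evenly expressed probe, on each array (points, open where not detected) with the mean and SD of each tissue, as log2 of signal over the array's 75th percentile. Lysosomal pro-x carboxypeptidase-like peaked in the lymphoid organ (1.22 to 3.63) and venom dipeptidyl peptidase 4-like was not detected in muscle.

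Lower calls outside the hepatopancreas were set beside those of all tested probes. Of the 13 probes lower in gills 12 were enriched in hepatopancreas, against 370 of 842 over all tested probes. In hemocytes 14 of 23 were, against 627 of 2793, in the lymphoid organ 3 of 4, against 36 of 291, and in muscle 2 of 12, against 197 of 1903. Detected on no array of the tissue were 8 of the 13 in gills, against 368 of the 842, 17 of the 23 in hemocytes, against 1159 of the 2793, 1 of the 4 in the lymphoid organ, against 80 of the 291, and 8 of the 12 in muscle, against 845 of the 1903. At their bound 11 of the 13 in gills were at least 2-fold lower, against 616 of all, 13 of the 23 in hemocytes, against 2130 of all, 3 of the 4 in the lymphoid organ, against 245 of all, and 5 of the 12 in muscle, against 1339 of all. With the hepatopancreas left out of the fit and of the mean, a comparison added after the data were seen, 2 probes were lower in gills (7.67% of all tested probes), 13 in hemocytes (20.4%), 0 in the lymphoid organ in limma (5.69%; 3 at an unadjusted p under 0.05) and 10 in muscle (19.2%). The higher calls were then 10 in gills (9.11% of all), 7 in hemocytes (16.4%), 4 in the lymphoid organ (9.63%) and 8 in muscle (20.2%), against 4 in muscle with the hepatopancreas included. In hepatopancreas itself 6 probes were lower (23.4% of all tested probes were): the 2 gill aminopeptidase n probes, the gill neprilysin relative cluster015274, cluster026957, lysosomal pro-x carboxypeptidase-like and cpvl.

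Tissues were also compared in pairs. Of the 55 probes, 34 were called between hemocytes and hepatopancreas (52.6% of all tested probes were), with 6 higher (26.7% of all) and 28 lower in hemocytes (25.9% of all). Between gills and hepatopancreas 31 were called (33.7% of all), 7 higher (16.8% of all) and 24 lower in gills (16.9% of all). Hepatopancreas differed from the lymphoid organ at 30 probes (24.7% of all), 23 of them higher in hepatopancreas (10.1% of all), and from muscle at 28 (45.7% of all), 25 of them higher (21.6% of all). Pairs without the hepatopancreas gave 21 calls between gills and muscle (28.7% of all), 19 between hemocytes and muscle (41.8%), 14 between gills and hemocytes (26.5%), 13 between the lymphoid organ and muscle (31.9%), 11 between hemocytes and the lymphoid organ (21.5%) and 5 between gills and the lymphoid organ (9.15%).

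Probes of equal description did not always share a pattern. Of 12 descriptions with more than 1 tested probe, 8 had probes whose highest mean lay in different tissues. This counts the highest mean whether or not it was called, and the same count was not made over all descriptions of the array. Carboxypeptidase b was the widest case, with cluster033221 highest in hepatopancreas, cluster023292 in hemocytes, and cluster009335 and cluster009245 in gills. Of these, cluster009245 was called in no comparison. X-prolyl aminopeptidase had a hepatopancreas probe (cluster036023) and a probe of smaller range (cluster021014), which ran from -0.42 to 1.67 over the 16 arrays. With the hepatopancreas left out, cluster021014 was called lower in gills (log2 -1.08, adjusted p = 0.0366 in limma). Only the 3 cytosolic dipeptidase probes, and the pairs for carboxypeptidase a2, methionine aminopeptidase and n-acetylated alpha-linked acidic dipeptidase 2-like, shared 1 highest tissue.

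Of the 66 probes 12 were detected on all 16 arrays, and the median range of tissue means was 1.89 for these 12, against 2.06 for the 3238 such probes of the array. The 12 include carboxypeptidase b (cluster033221) and the 3 cytosolic non-specific dipeptidase probes, which were enriched in hepatopancreas, and the 3 probes described next were picked among the 12 for their small range. Alpha-aspartyl dipeptidase (cluster013757), which splits pairs that begin with aspartate, had tissue means of 1.29 to 2.21. Its lowest level was -0.0744 on hemocytes 2, and the other 15 arrays ran from 1.04 to 2.47. Dipeptidyl-peptidase 3 (cluster024092), a cytosolic zinc enzyme, was above 1 on every array and higher in hemocytes (3.65, 3.67, 2.56 and 4.23, 2.471-fold, adjusted p = 0.033), a call lost under 10 of 30 alternatives, among them those without hemocytes 1, 2 or 4 (adjusted p = 0.0728, 0.0821 and 0.125). Methionine aminopeptidase (cluster001515) had tissue means between 0.84 in hepatopancreas and 2.22 in muscle. In no comparison were 4 of the 55 probes called (7.27%, against 19.1% of all tested probes): alpha-aspartyl dipeptidase, carboxypeptidase b (cluster009245), endoplasmic reticulum aminopeptidase 2-like (cluster012893), a relative of the enzyme that trims peptides for antigen presentation in mammals, and puromycin-sensitive aminopeptidase-like (cluster004372).

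The 11 probes that were not tested were each detected on 1 to 7 arrays. They were 2 of aminopeptidase n (cluster000011 and cluster032384), glutamyl aminopeptidase (cluster012967), puromycin-sensitive aminopeptidase-like (cluster004373), the only astacin (cluster011059), a carboxypeptidase b (cluster004582), cytosolic carboxypeptidase 1 and cytosolic carboxypeptidase-like protein 5, enzymes that in mammals shorten glutamate chains on tubulin, dipeptidyl peptidase 9-like and 2 of x-prolyl aminopeptidase (cluster035235 and cluster035236). Carboxypeptidase b (cluster004582) had its highest mean in hepatopancreas, with -1.89, 0.27 and -0.85 in hepatopancreas, detected on 2 of the 3 arrays. Puromycin-sensitive aminopeptidase-like (cluster004373) reached 2.05 on muscle 3, against -3.67 and -2.17 on muscle 1 and 2, and aminopeptidase n (cluster000011) reached 0.38 on the same array, against -2.42 and -2.88.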

How the data were processed

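Total RNA of each sample was hybridised to a 1-colour Agilent array. Per the file headers and the submitters' processing notes (Agilent Feature Extraction 10.7.3.1), the authors deposited processed signal intensity for each probe and array. The deposited series table holds log2 values that equal the log2 of the same intensity minus 1 constant per array, as tested on the files, and served as an alternative. Here each intensity was divided by the 75th percentile of its array over the 13875 non-control probes (60 control probes were left out) and log2 was taken, with compromised spots missing. Probes detected in at least 1 tissue on all of its usable arrays were fitted in limma 3.58.1 (R 4.3.3; lmFit, contrasts and eBayes with a trend), with Benjamini-Hochberg adjustment within each comparison over 10317 probes. The fit was tested on simulated data with independent normal noise. The simulation held no undetected spots and no slide effects, so it does not cover those limits.

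The members and lists were chosen with earlier results of these data known. Named are, per tissue, called probes by size of difference with 1 per description (up to 25 in hepatopancreas, 10 elsewhere), all enriched probes, the most even probe of each family and the 5 most even probes detected on all arrays; of the marker and context lists, up to 2 per tissue. Other probes named, such as glutamate carboxypeptidase 2 (cluster008339), zinc carboxypeptidase (cluster008125), trypsin domain containing 1 and those not tested, were chosen after their values were seen. Alternatives varied scaling, filter, floor, thresholds, blocks and arrays; leaving out hepatopancreas, 1 probe per description and fits within a slide were added after seeing the data. No probe sequence was used here.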

Additional observations from a re-analysis of the deposited data

Results flagged for a closer look

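Carboxypeptidase d (cluster014491) in hemocytes held 1 array far from the others. Hemocytes 1 stood at -0.00437, while the other 3 hemocyte arrays lay between -1.66 and -1.49, so the gap was 0.897 of the whole range, above Dixon's 95% critical value for 4 samples. All 4 spots were detected. Of 45 named probes checked in hemocytes 1 (2.22%) was singled out in this way, and chance does so for about 1 in 20 groups.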

How the results depend on the processing

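Of 738 alternative values of the counts 640 stayed within 1.5 times, and of 3162 alternative values of the member differences 2742 kept their call, 418 lost it and 2 reversed: carboxypeptidase (cluster000652) and dipeptidase 1-like (cluster032346) in muscle were 0.0892 and 0.4 with the hepatopancreas left out. These totals include the fits within a slide, where some tissues had only 1 array. Each called difference kept its direction within each slide. Spots near background limit the low side: with the floor 86 calls were kept and 21 lost. The cause of the changes below was not tested.

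Quantile normalization gave 7 probes lower in the lymphoid organ, and median scaling 8, with 6 called between hemocytes and the lymphoid organ. Common-probe scaling gave 1 lower and 2 enriched in the lymphoid organ. Without a detection filter 1 was lower in the lymphoid organ, 7 higher in muscle and 1 enriched in muscle. The stricter filter gave 5 higher and 1 enriched in gills, 2 higher in muscle, 0 enriched in the lymphoid organ, 8 called between gills and hemocytes and 2 between gills and the lymphoid organ. The floor gave 1 higher in the lymphoid organ, 4 lower in muscle, 1 enriched in gills, 0 enriched in the lymphoid organ, 11 between gills and muscle, 4 between hemocytes and the lymphoid organ and 7 between the lymphoid organ and muscle. With no fold threshold 2 were enriched in the lymphoid organ and 1 in muscle, and at 4-fold 2 were higher in hemocytes, 1 lower in the lymphoid organ, and 2 higher and 7 lower in muscle.

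Fits within a slide had only 1 array each of gills and hepatopancreas (slide 1) or of the lymphoid organ and muscle (slide 2). Many counts moved there, and they are not given. With 1 probe per description the counts were 3 higher, 7 lower and 1 enriched in gills and 13 lower in hemocytes. They were 3 lower and 11 enriched in hepatopancreas, and 1 higher, 2 lower and 0 enriched in the lymphoid organ. With the hepatopancreas left out 2 were lower in gills, 13 in hemocytes and 0 in the lymphoid organ, and 8 were higher in muscle.

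Whether replicate numbers shared across tissues paired the arrays could not be decided. Over 27 same-numbered pairs the correlation of deviations ran from -0.405 to 0.399 (median 0.021). Over 75 pairs of other numbers it ran from -0.283 to 0.342 (median -0.021). These ranges overlapped, and each tissue had few arrays. Of 16 arrays 7 correlated best with their own number, but the count to be met without pairing was not calculated. With the replicate block 99 calls were kept and 8 lost, 2 probes were enriched in the lymphoid organ and 5 were called between hemocytes and the lymphoid organ.

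Leaving out 1 array at a time gave 7 to 10 higher and 7 to 16 lower in gills, 5 to 7 and 17 to 27 in hemocytes, 24 to 27 and 4 to 10 in hepatopancreas, 2 to 3 and 0 to 6 in the lymphoid organ and 4 to 5 and 5 to 12 in muscle. Enriched counts ran from 2 to 3 in gills, 0 to 1 in hemocytes, 13 to 22 in hepatopancreas, 0 to 2 in the lymphoid organ and 0 to 1 in muscle. Calls ran from 9 to 15 between gills and hemocytes, 27 to 34 between gills and hepatopancreas, 5 to 11 between gills and the lymphoid organ, 11 to 23 between gills and muscle, 31 to 38 between hemocytes and hepatopancreas, 2 to 15 between hemocytes and the lymphoid organ, 13 to 24 between hemocytes and muscle, 25 to 31 between hepatopancreas and the lymphoid organ, 22 to 30 between hepatopancreas and muscle and 8 to 15 between the lymphoid organ and muscle.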
